A study of Rattus norvegicus with 12 samples.

Results

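The clustered histone genes are the replication-dependent genes of the core histones H2A, H2B, H3 and H4 and of the linker histone H1, which lie side by side in a few clusters of the genome. They were taken here as every row of the deposited expression table whose gene name starts with Hist and a digit, 35 of 32761 features. Of these, 14 reached 0.5 CPM (reads of a gene scaled to the total reads of its library) in at least 1 of the 4 group means, and these are described gene by gene. By their names, the 35 comprised 5 genes for H1, 14 for H2A, 11 for H2B, 1 for H3 and 4 for H4, and the 14 comprised 2 for H1, 4 for H2A, 5 for H2B and 3 for H4. In the coordinates of the Rnor_6.0 rat assembly, 25 of the 35 lie on chromosome 17 between 43422454 and 44841382, and 7 on chromosome 2 between 198359754 and 198424443. A further 2 lie on chromosome 10 and 1 on chromosome 4.

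RNA came from iAM-1 cells, a line of atrial myocytes of newborn Wistar rats that is conditionally immortalized, with doxycycline-dependent expression of a temperature-sensitive SV40 large T antigen. All groups were differentiated without doxycycline in medium with 2% serum. The 4 groups of 3 samples were untransduced cells, cells with a lentiviral vector for the ppluc shRNA, the control, and cells with a lentiviral vector for Sbk2 shRNA 1 or Sbk2 shRNA 2, all vectors being added soon after differentiation had started. The library kit kept strand and enriched polyadenylated RNA. Every sample title carries D9 and P10. All Sbk2 shRNA titles share the same leading number, whereas each untransduced and ppluc title has its own, and the labels do not explain these numbers. A single cell line stands behind all 12 samples, and the labels do not state whether the samples of a group were separate cultures, so p-values here measure only the spread between these samples, which may be technical.

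Most mRNAs of these genes end in a stem-loop rather than in a polyA tail, and they are made mainly in S phase, when new DNA is packed into nucleosomes. The stem-loop is bound by Slbp, and the U7 machinery cuts the transcript just after it. Some of the genes also give transcripts with a polyA tail, as described in differentiated cells, and a library enriched for polyA retains mainly these. What is measured here is therefore the polyadenylated part of their RNA, together with any other RNA carried through the enrichment, and not the total.

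The promoters of 4 members that the results turn on are shown, since histone promoters are known for short shared elements. RefSeq (assembly GRCr8, whose coordinates differ from those of the deposited files) gave a promoter of 300 bases, 250 before and 50 after the transcript start, for 10 of the 35 genes and 7 of the 14 by symbol and chromosome. Capitals mark the octamer ATTTGCAT, the element of H2B promoters bound by Oct-1, the CCAAT box bound by NF-Y and the TATA box TATAAA, each searched on both strands, so that ATTGG and TTTATA are matches on the reverse strand.
Hist1h2bq (chr17:41869292-41869591, minus strand): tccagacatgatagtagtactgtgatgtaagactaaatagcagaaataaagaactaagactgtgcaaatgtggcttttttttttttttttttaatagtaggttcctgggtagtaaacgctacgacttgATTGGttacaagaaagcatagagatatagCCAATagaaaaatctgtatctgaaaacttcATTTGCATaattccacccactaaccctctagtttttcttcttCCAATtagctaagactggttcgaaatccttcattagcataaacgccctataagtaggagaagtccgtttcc
Hist2h2be (chr2:186469202-186469501, plus strand): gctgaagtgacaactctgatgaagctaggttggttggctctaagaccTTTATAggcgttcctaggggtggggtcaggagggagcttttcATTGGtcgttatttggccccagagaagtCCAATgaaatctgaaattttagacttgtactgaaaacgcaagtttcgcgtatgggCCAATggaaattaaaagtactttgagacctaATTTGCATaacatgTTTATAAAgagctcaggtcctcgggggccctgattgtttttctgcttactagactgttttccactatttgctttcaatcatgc
Hist3h2ba (chr10:44225171-44225470, plus strand): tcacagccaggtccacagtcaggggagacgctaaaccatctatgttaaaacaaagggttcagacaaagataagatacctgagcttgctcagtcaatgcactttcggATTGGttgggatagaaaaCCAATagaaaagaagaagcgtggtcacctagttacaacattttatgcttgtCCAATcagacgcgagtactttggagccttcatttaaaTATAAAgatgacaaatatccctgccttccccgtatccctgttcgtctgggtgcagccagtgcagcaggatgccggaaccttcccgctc
Hist2h2aa2 (chr2:186490715-186491014, minus strand): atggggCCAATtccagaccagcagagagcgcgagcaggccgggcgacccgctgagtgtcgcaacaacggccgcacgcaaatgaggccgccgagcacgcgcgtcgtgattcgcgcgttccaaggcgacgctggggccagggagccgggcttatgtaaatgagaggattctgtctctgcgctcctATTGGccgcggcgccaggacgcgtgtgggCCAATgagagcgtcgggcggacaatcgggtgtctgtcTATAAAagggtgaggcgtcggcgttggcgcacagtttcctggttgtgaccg

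The octamer stood in the promoters of the H2B genes Hist1h2bq, with its first base at position -63, and Hist2h2be, at -47, counted from the transcript start. It was in 2 of the 7 promoters and in 595 of all 33469 RefSeq promoters of this length (1.78%). CCAAT was in 6 of the 7, against 37.5% of all, and TATAAA in 5 of the 7, against 14.2%. The Hist1h2bq promoter held no TATAAA in this window, and in that of Hist2h2be a match on the plus strand overlaps one on the minus strand. In that of Hist2h2aa2 TATAAA began at -1, so it lies across the RefSeq transcript start rather than before it. These matches are descriptions of the letters and say nothing about binding in these cells.

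Reads of the clustered histone genes were few in every library, from 1058 to 13656 for all 35 together, and they were most frequent with Sbk2 shRNA 2. Their summed level was 36.5 ± 1.96 CPM in untransduced cells, 69.3 ± 3.27 in ppluc cells, 76.7 ± 3.59 in shRNA 1 cells and 342 ± 47.1 in shRNA 2 cells (SD, n = 3 each). The sum with shRNA 2 was 4.94 times that with ppluc. In all 14 described genes each shRNA 2 library lay above the 9 other libraries, as in 44.8% of all features tested (above the ppluc libraries alone in 64.5%). For 7 of these 14 the choice itself plays a part, since they reached 0.5 CPM with shRNA 2 alone and therefore had to be higher there. The values of those 7 are given as a description, and medians with shRNA 2 use the 7 genes that reached 0.5 CPM in another group as well. Of those 7, Hist2h2aa2 reached it elsewhere with ppluc alone and Hist1h2bh on chromosome 2 with shRNA 1 alone, so medians for the other comparisons use the 4 genes that reached it in every group, Hist1h2bq, Hist1h1c, Hist3h2ba and Hist1h2ao.

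**Figure D1:**
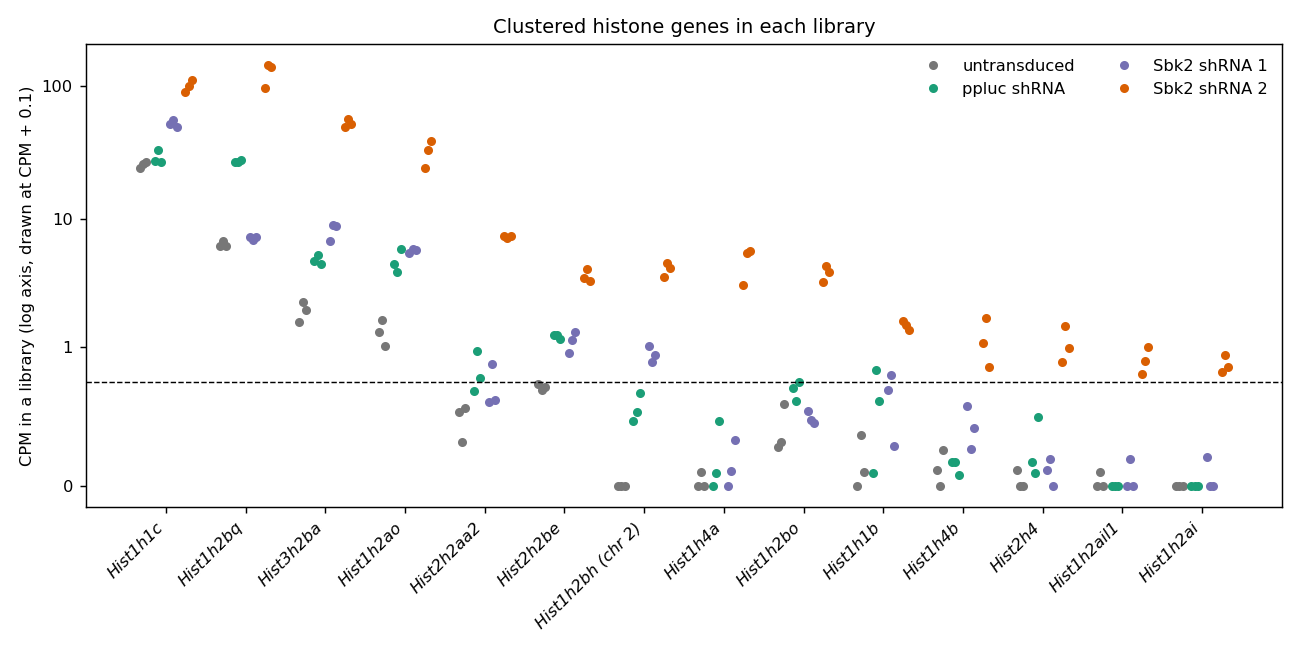
CPM of the 14 described histone genes in each of the 12 libraries, on a log axis drawn at CPM + 0.1, with 1 point per library, coloured by group; the dashed line marks 0.5 CPM. In every gene the 3 points of shRNA 2 lie above those of the 9 other libraries, and for Hist1h2bq the ppluc points (27.0 to 27.8 CPM) lie above those of untransduced cells and shRNA 1.

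The libraries held 30274847 to 47517427 reads assigned to features, so that 3 reads, taken as the floor, were 0.0631 to 0.0991 CPM. Sbk2 lay at 42.6 to 47.3 CPM in untransduced cells, 24.8 to 29.6 in ppluc cells, 1.00 to 1.13 in shRNA 1 cells and 0.620 to 0.719 in shRNA 2 cells. It was thus low with both Sbk2 shRNAs, as the labels imply. With ppluc it was also lower than in untransduced cells, which the labels do not imply. Differences are given as log2(CPM + 0.5), a scale on which changes of weakly expressed genes look smaller than they are, with ± for the limma standard error. Over all 12493 features tested, the median difference from ppluc was 0.26 with shRNA 1 and 0.50 with shRNA 2, and -0.04 for ppluc against untransduced cells. A gene's difference is to be read against these shifts. A trimmed-mean scaling of the libraries brings each of the 3 medians to within 0.02 of 0.

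By CPM, H2B genes held most of the histone reads with shRNA 2. Hist1h2bq (ENSRNOG00000021198, chromosome 17, 43679925 to 43689311), a gene for H2B, was measured at 6.22, 6.84 and 6.21 CPM in untransduced cells and at 27.1, 27.0 and 27.8 CPM with ppluc. It was measured at 7.27, 6.89 and 7.34 CPM with shRNA 1 and at 96.9, 144 and 140 CPM with shRNA 2. The ppluc libraries were thus high against untransduced cells and shRNA 1, shRNA 2 was higher still, and untransduced cells and shRNA 1 lay near each other without overlapping. The group mean with ppluc was 4.25 times that of untransduced cells and 3.81 times that with shRNA 1, and the mean with shRNA 2 was 4.64 times that with ppluc and 17.7 times that with shRNA 1. On the log2 scale Hist1h2bq rose by 2.01 ± 0.11 with the control vector (limma, Benjamini-Hochberg adjusted p = 5.1e-11). Against ppluc it fell by 1.86 ± 0.11 with shRNA 1 (limma adjusted p = 3.6e-11) and rose by 2.17 ± 0.11 with shRNA 2 (limma adjusted p = 1.0e-12). The difference between the Sbk2 shRNAs was itself tested and came to -4.03 ± 0.11, shRNA 1 minus shRNA 2 (limma adjusted p = 3.5e-16, lower in 3 of 3 libraries). The mean of both shRNAs, which averages opposite changes, stood 0.16 ± 0.09 from ppluc (limma adjusted p = 0.13), and at -0.23 after trimmed-mean scaling (limma adjusted p = 0.026).

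Hist3h2ba (ENSRNOG00000043419, chromosome 10, 45289741 to 45290370), a gene for H2B outside both large clusters, rose in steps. It was measured at 1.59, 2.32 and 2.00 CPM in untransduced cells, 4.78, 5.29 and 4.57 CPM in ppluc cells, 6.77, 9.05 and 8.81 CPM in shRNA 1 cells and 49.4, 56.2 and 51.9 CPM in shRNA 2 cells. No group overlapped another, and the order was untransduced, ppluc, shRNA 1 and shRNA 2. The difference was 1.13 ± 0.12 with the control vector (limma adjusted p = 4.0e-07), and against ppluc 0.69 ± 0.12 with shRNA 1 (limma adjusted p = 6.8e-05) and 3.30 ± 0.12 with shRNA 2 (limma adjusted p = 2.1e-14). The last corresponds to 10.8 times the ppluc mean in CPM.

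Hist2h2be (ENSRNOG00000045753, chromosome 2, 198360998 to 198361378), which encodes an H2B protein, was measured at 0.486, 0.430 and 0.456 CPM in untransduced cells and 1.25, 1.26 and 1.18 CPM with ppluc. With shRNA 1 it was at 0.892, 1.15 and 1.33 CPM, overlapping ppluc, and with shRNA 2 at 3.56, 4.18 and 3.38 CPM, above all others. It rose by 0.85 ± 0.14 with the control vector (limma adjusted p = 4.4e-05) and by 1.28 ± 0.14 with shRNA 2 against ppluc (limma adjusted p = 8.5e-08). With shRNA 1 it differed by -0.10 ± 0.14 from ppluc, which did not pass the test (limma adjusted p = 0.54). Both genes with an octamer in the printed promoter, Hist1h2bq and Hist2h2be, rose with the control vector and with shRNA 2, and so did Hist3h2ba, whose window holds none.

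A row named Hist1h2bh on chromosome 2 (ENSRNOG00000059093, 198418691 to 198424443), H2B by its name, had 0 reads in all untransduced libraries. It was measured at 0.209, 0.257 and 0.400 CPM with ppluc, 1.02, 0.759 and 0.862 CPM with shRNA 1 and 3.63, 4.65 and 4.19 CPM with shRNA 2. The 4 groups did not overlap. Against the floor of 3 reads per library in untransduced cells, the level was at least 3.22-fold higher with ppluc and at least 46.4-fold higher with shRNA 2. Against ppluc it rose by 0.81 ± 0.15 with shRNA 1 (limma adjusted p = 9.6e-05) and in shRNA 2 cells by 2.56 ± 0.15 (limma adjusted p = 1.1e-11). The fifth H2B row, Hist1h2bo (ENSRNOG00000054296, chromosome 17, 44756555 to 44793927), held 3, 4 and 11 reads in untransduced cells, 17, 13 and 24 in ppluc cells, 8, 7 and 8 in shRNA 1 cells and 100, 141 and 145 in shRNA 2 cells. In CPM the shRNA 2 libraries were high, and the ppluc libraries lay just above those of untransduced cells and of shRNA 1, which overlapped. Its CPM mean with shRNA 2 was 9.03 times that with ppluc, but its model of 37373 bases overlaps 5 other features, among them Hist1h1b and a row named Hist1h2ail1, so its reads may belong to several genes.

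Of the linker histone genes, Hist1h1c (ENSRNOG00000054978, chromosome 17, 43639749 to 43640387), which encodes an H1 subtype found in most somatic cells, was higher with both Sbk2 shRNAs than with ppluc. It was measured at 24.0, 25.9 and 26.9 CPM in untransduced cells, 27.1, 32.8 and 26.9 CPM in ppluc cells, 51.7, 55.1 and 49.4 CPM in shRNA 1 cells and 90.1, 99.4 and 110.1 CPM in shRNA 2 cells. Untransduced cells and ppluc met at their edges, both shRNA groups lay above them, and shRNA 2 lay above shRNA 1. Against ppluc the difference was 0.84 ± 0.08 with shRNA 1 (limma adjusted p = 3.0e-08) and 1.77 ± 0.08 with shRNA 2 (limma adjusted p = 3.0e-13), 1.80 and 3.45 times the ppluc mean in CPM. With the control vector it was 0.17 ± 0.08 (limma adjusted p = 0.085), a difference of 0.21 that passed after trimmed-mean scaling. Hist1h1b (ENSRNOG00000060355, chromosome 17, 44766313 to 44766981), another H1 subtype gene, held 0, 5 and 1 reads in untransduced cells, 1, 25 and 16 in ppluc cells, 13, 19 and 4 in shRNA 1 cells and 50, 49 and 51 in shRNA 2 cells. Its first 3 groups overlapped, and its mean with shRNA 2 was 4.52 times that with ppluc, or 8.34 times without ppluc library 2, the one with 25 reads.

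Among the H2A genes, Hist1h2ao (ENSRNOG00000054017, chromosome 17, 44522140 to 44526583) was measured at 1.33, 1.66 and 1.03 CPM in untransduced cells and 4.57, 3.93 and 5.87 CPM with ppluc. It was at 5.48, 5.92 and 5.79 CPM with shRNA 1, overlapping ppluc, and at 24.3, 33.0 and 38.9 CPM with shRNA 2. It rose by 1.52 ± 0.16 with the control vector (limma adjusted p = 3.4e-07) and by 2.61 ± 0.16 with shRNA 2 against ppluc (limma adjusted p = 2.8e-11), and differed by 0.25 ± 0.16 with shRNA 1, which did not pass (limma adjusted p = 0.18). The deposited model of this gene spans 4444 bases, while the RefSeq gene of that name has 391.

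Hist2h2aa2 (ENSRNOG00000047898, chromosome 2, 198381798 to 198382190), also an H2A gene, was low outside shRNA 2. It was measured at 0.259, 0.115 and 0.285 CPM in untransduced cells, 0.418, 0.924 and 0.547 CPM in ppluc cells, 0.330, 0.729 and 0.345 CPM in shRNA 1 cells and 7.35, 7.19 and 7.43 CPM in shRNA 2 cells. The ppluc and shRNA 1 libraries overlapped, and the shRNA 2 libraries were close together and far above the rest. The rise was 0.63 ± 0.18 with the control vector (limma adjusted p = 0.0069) and 2.82 ± 0.18 with shRNA 2 against ppluc (limma adjusted p = 5.2e-11), where the CPM mean was 11.6 times that with ppluc. Hist2h2aa3, a gene of the same model length of 393 bases, lies beside it, and the sources used here do not say how reads shared by such genes were assigned.

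The other H2A rows were at or near 0 outside shRNA 2. Hist1h2ai (ENSRNOG00000059748) held 0 reads in all untransduced and ppluc libraries, 2, 0 and 0 with shRNA 1 and 19, 28 and 25 with shRNA 2, at least 9.93-fold above the floor of 3 reads per ppluc library. A row named Hist1h2ail1 (ENSRNOG00000054539), taken as H2A by its name, held 0, 1 and 0 reads in untransduced cells, 0 in all ppluc libraries, 0, 2 and 0 with shRNA 1 and 18, 25 and 37 with shRNA 2, at least 10.8-fold above that floor. Rows of this name have the same length of 411 bases as the H3 row Hist2h3c2, so the class given by the name was not checked by sequence.

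Genes for H4, which pairs with H3 in the core of the nucleosome, had few reads outside shRNA 2. Hist1h4a (ENSRNOG00000050933, chromosome 17, 43821225 to 43821536) held 0, 1 and 0 reads in untransduced cells, 0, 1 and 10 in ppluc cells, 0, 1 and 5 in shRNA 1 cells and 96, 177 and 211 in shRNA 2 cells. Hist1h4b (ENSRNOG00000032224) held 1, 0 and 3 reads in untransduced cells, 2, 2 and 1 in ppluc cells, 9, 3 and 7 in shRNA 1 cells and 33, 56 and 25 in shRNA 2 cells. Hist2h4 (ENSRNOG00000058444) held 1, 0 and 0 reads, 2, 1 and 11 reads, 1, 2 and 0 reads and 23, 48 and 36 reads in the same order of groups. In each of these genes the shRNA 2 libraries stood clear of the others, and the other groups overlapped, apart from Hist1h4b, whose shRNA 1 libraries lay above ppluc. Summed over the 4 H4 genes, the level was 0.223 ± 0.208 CPM with ppluc and 7.02 ± 1.90 CPM with shRNA 2 (SD, n = 3), a ratio of 31.5. Most of the ppluc sum came from library 3, and without it the ratio was 67.8. The only row named as an H3 gene, Hist2h3c2, stayed below 0.5 CPM, at 0.362 CPM with shRNA 2.

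The make-up of the histone reads changed between groups. H1 genes held 70.4% of them in untransduced cells, 42.4% in ppluc cells, 68.4% in shRNA 1 cells and 29.7% in shRNA 2 cells. H2B genes held 24.9%, 49.3%, 23.0% and 56.0% in the same order. These shares follow mainly Hist1h1c and Hist1h2bq, which together held 87.7% of histone reads in untransduced cells and 66.2% with shRNA 2. In summed CPM with shRNA 2 over ppluc, H1 stood at 3.46 times, H2B at 5.61 times and H2A at 7.55 times. All these shares rest on CPM. In the authors' deposited TPM, described below, the H2A gene Hist2h2aa3 stood highest with shRNA 2, at 554 TPM against 268 for Hist1h2bq. The order of classes need not hold in that measure.

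**Figure D2:**
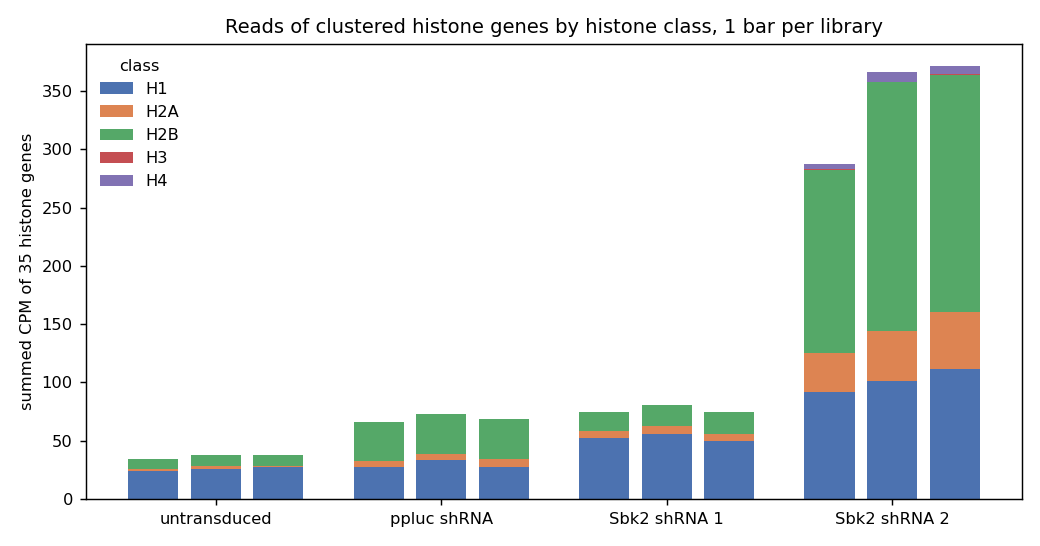
Summed CPM of the 35 histone genes in each of the 12 libraries, 1 bar per library, stacked by histone class. The bars stand at 34.3 to 37.8 CPM in untransduced cells and at 288 to 372 CPM with shRNA 2, and the H2B portion is wide with ppluc and shRNA 2 and narrow in untransduced cells and with shRNA 1.

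The control vector alone moved several of the genes. Against untransduced cells, 7 of the 14 rose with ppluc and 0 fell, where 24.9% of all features rose and 32.3% fell (limma adjusted p under 0.05). After trimmed-mean scaling 8 rose, against 28.9% of features, and 0 fell, against 28.4%. No member was lower at an unadjusted p under 0.05 either, and 0 fell with voom weights. Several members could hardly fall, since their untransduced libraries together held few reads. These were 0 for Hist1h2bh on chromosome 2 and Hist1h2ai, 1 for Hist1h4a, Hist2h4 and Hist1h2ail1, 4 for Hist1h4b and 6 for Hist1h1b. The count of 0 that fell is therefore no support. The 7 were Hist1h2bq, Hist1h2ao, Hist3h2ba, Hist2h2be, Hist1h2bh on chromosome 2, Hist2h2aa2 and Hist1h2bo, and in each the 3 ppluc libraries lay above the 3 untransduced ones, as in 28.5% of features. Over the 4 genes that reached 0.5 CPM in every group, the median difference was 1.33, beside -0.04 over all features. Hist1h2bo (0.47 ± 0.16, limma adjusted p = 0.020) was the weakest of these calls, and its difference did not pass when any 1 of untransduced replicate 1 or 2 or ppluc replicate 1 or 3 was left out (limma adjusted p = 0.051 to 0.084). Hist2h2aa2 did not pass without ppluc replicate 2 (0.45, limma adjusted p = 0.054).

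With shRNA 1 against ppluc, 3 of the 14 rose (Hist1h1c, Hist1h2bh on chromosome 2 and Hist3h2ba), where 54.7% of features rose, and 1 fell (Hist1h2bq), where 18.7% fell (limma adjusted p under 0.05). After trimmed-mean scaling 3 rose, against 34.5% of features, and 2 fell, against 33.1%, Hist1h2bo being the other (-0.47, limma adjusted p = 0.017). The libraries did not overlap in 4 genes higher and 2 lower than with ppluc, against 56.5% and 20.1% of features. Hist1h2ai and Hist1h2ail1 held 0 reads over the ppluc libraries, Hist1h4b held 5, Hist1h4a 11 and Hist2h4 14, so these could hardly fall. The 7 genes that reached 0.5 CPM with shRNA 2 alone lay below it with both ppluc and shRNA 1 by that choice. They had little room to rise either, so these counts are no support. The 4 genes that reached 0.5 CPM in every group went different ways, with Hist1h2bq at -1.86, Hist1h2ao at 0.25, Hist3h2ba at 0.69 and Hist1h1c at 0.84, and their median was 0.47, beside 0.26 over all features.

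With shRNA 2 against ppluc, all 14 rose, where 65% of features rose, and 0 fell, where 21.1% fell (limma adjusted p under 0.05). After trimmed-mean scaling the 14 rose against 40.7% of features, while 0 members and 40.2% of features fell. Here too 0 members were lower at an unadjusted p under 0.05 or fell with voom weights. Members that had to differ are among the 14, so the count is no support. Of the 7 that reached 0.5 CPM in another group, 5 rose by 2 or more on the log2 scale, a size reached by 4.77% of features, and their median was 2.56, beside 0.50 over all features (2.11 beside 0.01 after trimmed-mean scaling). The lowest of the 7 was Hist2h2be at 1.28, or 0.85 after that scaling. Both comparisons with an Sbk2 shRNA use the same ppluc libraries, so they are not independent of each other.

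**Figure D3:**
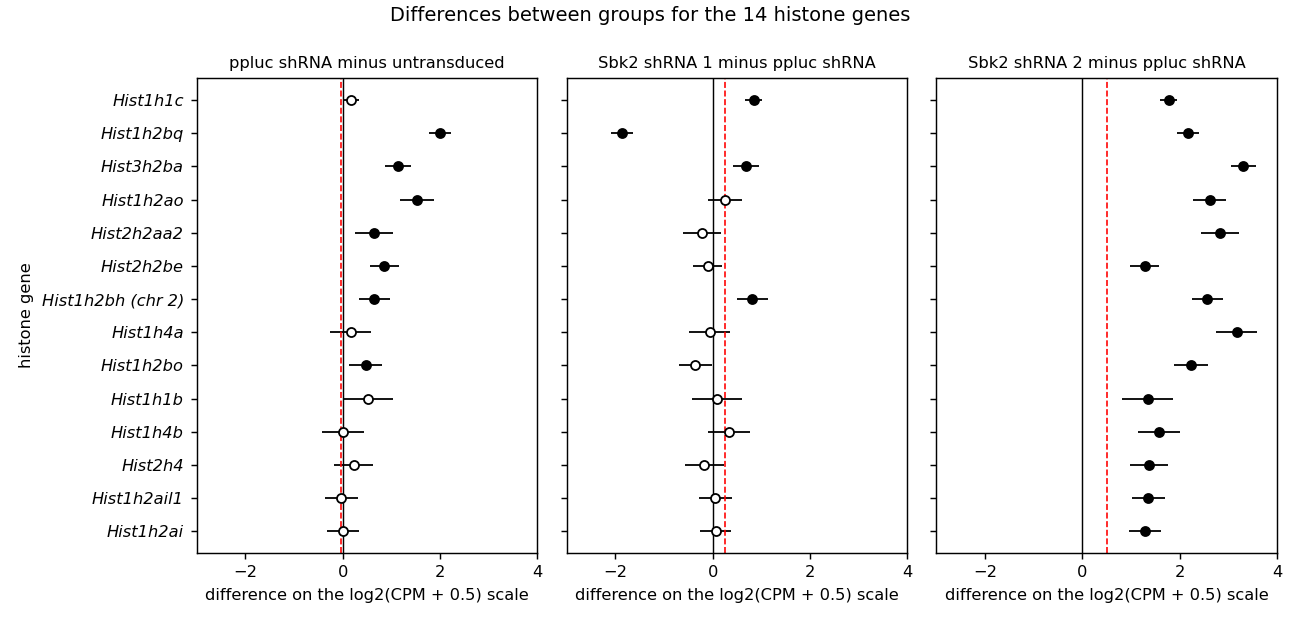
Differences of the described members on the log2(CPM + 0.5) scale for the control vector against untransduced cells and each Sbk2 shRNA against ppluc, with bars for the 95% interval of the limma fit; filled points pass an adjusted p of 0.05, and the red dashed line is the median of all 12493 features. With shRNA 2 every point lies to the right of the median, from 1.28 to 3.30, while with shRNA 1 Hist1h2bq lies at -1.86.

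Compared with each other, the shRNAs differed in all 14 genes, each lower with shRNA 1, where 53.3% of features were lower (39% after trimmed-mean scaling, limma adjusted p under 0.05). For the 7 genes that reached 0.5 CPM with shRNA 2 alone this direction was fixed by the choice, so the count is no support. The difference was smallest for Hist1h1c, at -0.93 ± 0.08 (limma adjusted p = 4.3e-09), and on the log2(CPM + 0.5) scale widest for Hist1h2bq. In ratios of CPM means Hist1h4a stood farther apart, at 93.6 times with shRNA 2 over shRNA 1 against 17.7 times for Hist1h2bq. However, Hist1h4a held 0, 1 and 5 reads with shRNA 1, so its ratio rests on 1 library above the floor of 3 reads. Over the 7 genes reaching 0.5 CPM outside shRNA 2 the median was -2.36, beside -0.25 over all features. For the mean of both shRNAs against ppluc 13 of 14 rose, where 64.4% of features rose (38.5% after trimmed-mean scaling), and 0 fell, where 18.8% fell (1, Hist1h2bq, against 38.6% after that scaling), although 4 of them alone had all 6 libraries above those of ppluc, as in 43.1% of features. Genes chosen through shRNA 2 alone are in the count for the mean of both shRNAs too, so it is no support either. Leaving out any 1 shRNA 2 library took 5 of the low genes below the filter of 0.5 CPM in 3 libraries, and the other 9 were all still called with shRNA 2 against ppluc.

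Among the 21 genes below 0.5 CPM in every group, the highest group mean was 0.381 CPM, and outside shRNA 2 it was 0.0874 CPM. The mean with shRNA 2 was above that with ppluc in 16 of them, equal in 4 and lower in 1, and 3 genes were listed at 0 in all groups. Just outside the minimum stood another row named Hist1h2ail1 (ENSRNOG00000046434) at 0.381 CPM and Hist2h3c2 at 0.362 CPM with shRNA 2, and just inside it Hist1h2ai at 0.723 CPM and the described Hist1h2ail1 at 0.790 CPM.

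The authors' deposited TPM, a measure that also divides by gene length, gave another order. These are the authors' group means, with no error. With shRNA 2, Hist1h2bq stood at 268 TPM, Hist3h2ba at 266 TPM, Hist1h1c at 183 TPM, Hist2h2aa2 at 155 TPM and Hist1h4a at 59.0 TPM. The highest TPM of the 35 genes, however, was that of Hist2h2aa3, an H2A gene listed at only 0.0878 CPM with shRNA 2. It stood at 12.8 TPM in untransduced cells, 49.4 in ppluc cells, 29.0 in shRNA 1 cells and 554 in shRNA 2 cells. The H2B gene Hist3h2bb stood at 42.2 TPM against 0.0321 CPM and the H4 gene Hist1h4m at 12.7 TPM against 0 CPM, both with shRNA 2. Dividing the deposited CPM by length cannot give such values. Hist2h2aa2 and Hist2h2aa3, both of 393 bases, stood at 21.1 and 6309 TPM per CPM with shRNA 2. For such rows the CPM and TPM do not rest on the same assigned reads. Over all features, 584 of the 20508 under 0.5 CPM with shRNA 2 (2.85%) had 10 TPM or more there. RefSeq lists Hist2h2aa3 as an older name both of Hist2h2aa2 and of a neighbouring gene, H2ac18, and the promoters of these genes were identical over the 271 bases that their windows share. Whether the CPM of these rows leaves out reads shared between copies was not tested.

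**Figure D4:**
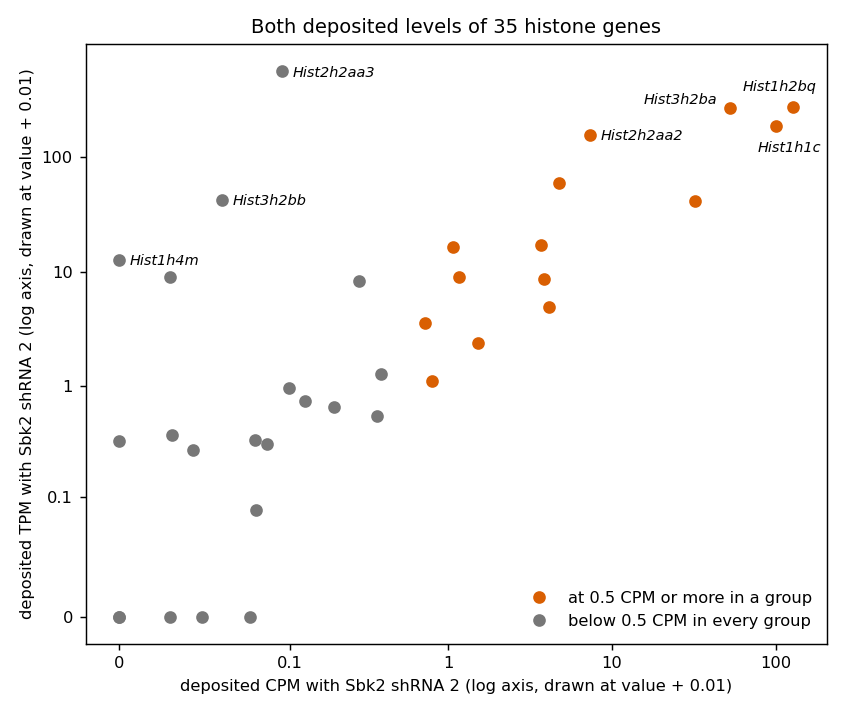
The authors' deposited TPM against their deposited CPM with Sbk2 shRNA 2 for the 35 histone genes, both on log axes drawn at value + 0.01; orange points reached 0.5 CPM in a group and grey points did not. Hist2h2aa3 (554 TPM), Hist3h2bb (42.2 TPM) and Hist1h4m (12.7 TPM) stand above the rest of the grey points.

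Other features lie between the histone genes. The spans on chromosomes 2, 10 and 17 held 66 features not in the set, of which 11 passed the filter. With shRNA 2 against ppluc 9 of the 11 rose and 0 fell, where 65% of all features rose and 21.1% fell (limma adjusted p under 0.05), with Abt1, an activator of basal transcription, at 1.88 ± 0.09 and Btn2a2, of the butyrophilin family, at 1.48 ± 0.16. The widest was LOC684828, at 3.32 ± 0.15 (limma adjusted p = 1.9e-13), and a row spelled hist1h2ail2, which the choice by name misses, was at 1.70 ± 0.18. Hfe, at -0.28 ± 0.16, and Zfp322a, at -0.18 ± 0.09, did not pass. LOC690171 (0.0665 CPM with ppluc, 0.925 with shRNA 2) and LOC684773 (0.0599 and 1.18) passed the filter through shRNA 2 alone. Both overlap the model of Hist1h2bo. The row hist1h2ail2, at -0.03 with the control vector and 0.19 with shRNA 1 against ppluc, also passed through shRNA 2 alone. These rows had to rise with shRNA 2 and could hardly fall in the other comparisons, so these counts are no support. With shRNA 1 4 of the 11 rose and 0 fell, against 54.7% and 18.7% of features, and with the control vector 2 rose and 1 fell, against 24.9% and 32.3%.

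Replacement histones, whose mRNAs carry a polyA tail and are made outside S phase too, were read beside the clustered genes from a list of 10 tested genes. With shRNA 2 against ppluc 7 rose and 0 fell, where 65% of all features rose and 21.1% fell, and after trimmed-mean scaling 5 rose and 4 fell, where 40.7% and 40.2% did. The count that rose thus lay near the share of all features. Their median was 0.71, beside 0.50 over all features, and 0.31 beside 0.01 after trimmed-mean scaling. H3f3b, a gene for H3.3, stood at 169 CPM in untransduced cells, 186 in ppluc cells, 370 in shRNA 1 cells and 1181 in shRNA 2 cells, and rose by 0.99 with shRNA 1 and in shRNA 2 cells by 2.66 ± 0.06 (limma adjusted p = 5.6e-17). H3f3a, another gene for H3.3, did not share this: it differed from ppluc by 0.08 ± 0.05 with shRNA 2 (limma adjusted p = 0.11) and fell by 0.44 with shRNA 1 (limma adjusted p = 1.6e-07), and it was named after its values were seen. H1fx, for a linker histone, differed from ppluc by 1.83 with shRNA 1 and 2.84 with shRNA 2, H2afx, for the variant phosphorylated at DNA breaks, by 0.70 and 1.47, and H2afy, for macroH2A, by 0.94 and 1.05, and all of these passed the test. With shRNA 1, 7 of the 10 rose and 2 fell (6 and 3 after scaling), against 54.7% and 18.7% of features (34.5% and 33.1% after scaling). The median was 0.76 beside 0.26 (0.51 beside 0.02 after scaling). With the control vector 2 rose and 2 fell, against 24.9% and 32.3% of features. After scaling 5 rose and 2 fell there, against 28.9% and 28.4%.

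Tested genes of histone mRNA 3′ end processing and turnover numbered 12. With shRNA 2, 10 rose and 2 fell (8 and 3 after trimmed-mean scaling), with a median of 0.88, and with shRNA 1, 8 rose and 1 fell (5 and 3), with a median of 0.34. The counts in these lists are to be read against all features, of which 65% rose and 21.1% fell with shRNA 2 (40.7% and 40.2% after scaling), with a median of 0.50, and 54.7% rose and 18.7% fell with shRNA 1 (34.5% and 33.1%), with a median of 0.26. Ncbp1, a cap-binding protein, rose by 1.55 with shRNA 2, Sympk, the scaffold symplekin, by 1.43, and Eri1, an exonuclease acting on the stem-loop, by 1.39. Slbp itself differed from ppluc by 0.13 with shRNA 1 and rose by 0.83 with shRNA 2, and Lsm11, of the U7 particle, fell by 0.72 there. Of 13 genes of cleavage and polyadenylation, 12 rose and 1 fell with shRNA 2 (9 and 2 after scaling), with a median of 0.77, among them Cpsf4 (1.38) and Cpsf1 (1.05), subunits of the cleavage and polyadenylation factor. Of 7 transcription factors of histone genes 5 rose and 2 fell (2 and 3 after scaling), with a median of 0.29, and with Nfyb, a subunit of NF-Y, at 2.14 and Nfyc, another subunit, at -1.17. Of 17 genes of histone chaperones and acetylation 12 rose and 2 fell (9 and 5 after scaling), with a median of 0.73, and with the CENP-A chaperone Hjurp at 2.44 and the H3.3 chaperone Daxx at 0.87.

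Genes of S phase and mitosis were counted because histone mRNAs are tied to the cell cycle, and are to be read against the same shares of all features. Of 24 S phase genes, 22 rose and 2 fell with shRNA 2 against ppluc (19 and 2 after trimmed-mean scaling), where 65% and 21.1% of features did (40.7% and 40.2% after scaling), with a median of 1.17 beside 0.50. With shRNA 1, 16 of them rose and 1 fell (10 and 3 after scaling), where 54.7% and 18.7% of features did (34.5% and 33.1%), with a median of 0.34 beside 0.26, near the background. The helicase subunit Mcm3 rose by 2.51 and the primase subunit Prim1 by 1.80 with shRNA 2. Of 11 mitosis genes 11 rose with shRNA 2 (9 after scaling), with a median of 1.43 beside 0.50, and 7 rose with shRNA 1, with a median of 0.75 beside 0.26. Cdk1, the mitotic kinase, was low throughout and stood at 0.424 CPM with ppluc, 2.32 with shRNA 1 and 5.07 with shRNA 2, and the spindle motor Kif11 rose by 1.60 with shRNA 1 and 2.84 with shRNA 2. With the control vector, where 24.9% of features rose and 32.3% fell, 9 S phase genes rose and 4 fell, and 2 mitosis genes rose and 3 fell. The part of these changes in the histone results was not tested, and in such bulk samples a larger share of cells expressing a gene and more of its RNA per cell cannot be told apart.

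**Figure D5:**
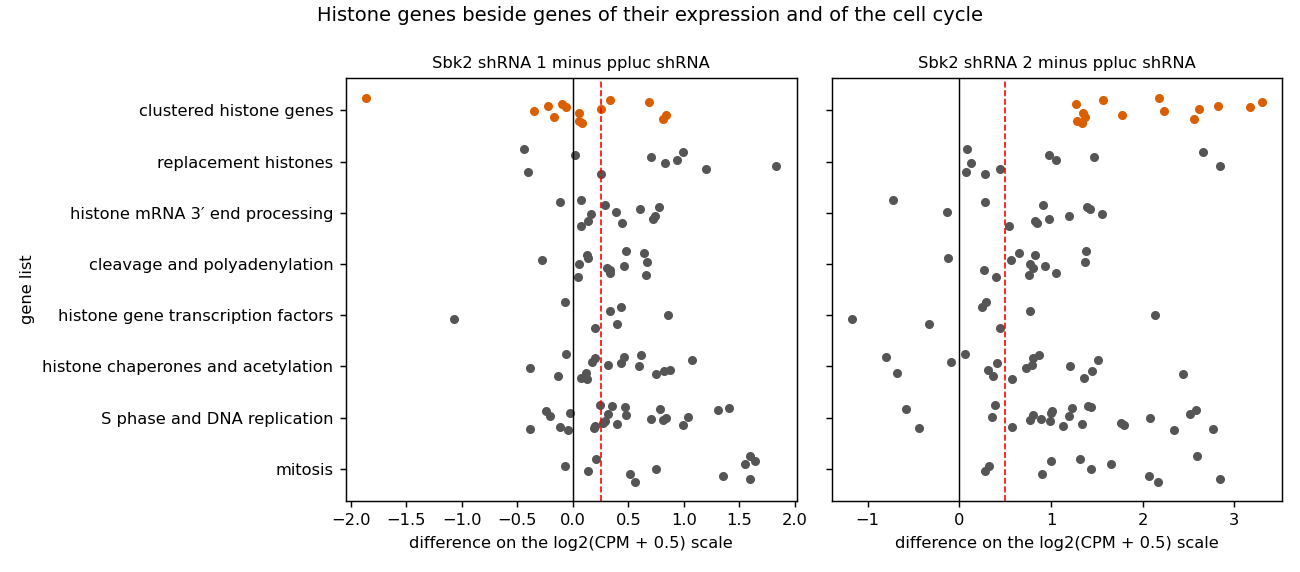
Differences of each tested gene of 7 lists related to histones, and of the described clustered histone genes, on the log2(CPM + 0.5) scale, 1 point per gene, for each Sbk2 shRNA against ppluc, the panels having different ranges; the red dashed line is the median of all 12493 features. The described histone genes lie between 1.28 and 3.30 with shRNA 2, all to the right of the median, and the S phase and mitosis genes lie mostly to its right.

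Markers of the atrial myocyte, checked for the cell type of the labels, were abundant in every library, and against ppluc 8 of 10 fell with shRNA 1, where 18.7% of features fell, and 10 of 10 with shRNA 2, where 21.1% fell (limma adjusted p under 0.05). The summed level of 10 markers was 60636 to 69531 CPM with ppluc, 31120 to 34163 CPM with shRNA 1 and 18281 to 23113 CPM with shRNA 2, against 66706 to 70559 CPM in untransduced cells. Col1a1 was the only 1 of 5 fibroblast markers at 0.5 CPM or more, and the list summed to 115 to 149 CPM with ppluc, 24.6 to 28.6 CPM with shRNA 1 and 14.6 to 20.2 CPM with shRNA 2. Kdr was the only 1 of 5 endothelial markers at that level, and the list summed to 141 to 152, 208 to 223 and 55.3 to 97.2 CPM in the same order, with Cdh5 and Emcn at 0. Of 6 macrophage markers Cd14 alone reached 0.5 CPM. The list summed to 0.924 to 1.46 CPM with ppluc, 4.43 to 5.74 CPM with shRNA 1 and 14.1 to 17.5 CPM with shRNA 2, with Ptprc, C1qa and Adgre1 at 0 in all libraries. The part of these shifts in the histone results was not tested.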

How the data were processed

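PolyA-enriched RNA of 12 iAM-1 samples in 4 groups of 3 was sequenced with paired 150-bp reads. The deposited CPM values (reads scaled to the library total, before any division by length) and the deposited TPM values, divided also by gene length, are group means made by the authors, per the file headers. For some rows the TPM is not the deposited CPM divided by length. The deposited locus table gives Rnor_6.0 coordinates, its starts being 0-based and raised here by 1. The submitters' processing notes name Rnor_6.0 and DESeq2 with no role; the sources used here do not name the aligner, the counting tool, the use of strand in counting or the handling of reads shared between copies.

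Whole reads of single libraries were recovered from the CPM means by arithmetic: a mean of 3 libraries is reached by few triples of whole reads. In each group 99.77 to 99.88% of features gave exactly 1 triple or 0 reads, whereas 0 or 1 of 3000 control means, moved by a fraction of 1e-10, gave any. Of the 32761 features, 15720 to 16831 in a group were listed at 0 and needed no recovery. The recovered reads of a library summed to a value that differed from its total by up to 0.58%. Library numbers order the libraries of a group by total and carry no pairing; within groups, r between libraries was 0.995 to 0.998 (log2, across features, which are not independent replicates). TPM could not be split in this way and stays without error. Library totals of 30274847 to 47517427 reads make 3 reads equal to 0.0631 to 0.0991 CPM.

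Features with at least 0.5 CPM in at least 3 libraries (12493) were fitted on log2(CPM + 0.5) with limma 3.58.1 in R 4.3.3, with 1 mean per group and a trended prior, and calls required an adjusted p under 0.05 (Benjamini-Hochberg, all features tested). The same test was run on simulated data. Python 3.11.15, numpy 2.4.6, pandas 2.3.3 and matplotlib 3.10.9 did the rest. Histone genes were chosen by name, all with 0.5 CPM in a group mean are described, and up to 4 genes of each related list with the smallest p for both shRNAs are named, beside H3f3a, Slbp, Lsm11 and the neighbouring genes, which were picked after their values were seen. The members and lists were chosen with earlier results of these data known. Alternatives were other pseudocounts (0.1 and 1), no filter, a filter at 1 CPM, 2 scalings, voom weights and each library left out in turn.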

Additional observations from a re-analysis of the deposited data

Results flagged for a closer look

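Hist1h2bq went opposite ways with the Sbk2 shRNAs: against ppluc it fell by 1.86 ± 0.11 on the log2(CPM + 0.5) scale with shRNA 1 and rose by 2.17 ± 0.11 with shRNA 2. The tested difference, shRNA 1 minus shRNA 2, was -4.03 ± 0.11 (limma, Benjamini-Hochberg adjusted p = 3.5e-16), with no overlap between the libraries of any pair of groups. Sbk2 itself was low with both, at 1.00 to 1.13 CPM and 0.620 to 0.719 CPM.

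Hist2h2aa3, Hist3h2bb and Hist1h4m stood out in the authors' deposited TPM, a measure that the tests did not use. With shRNA 2 they were at 554, 42.2 and 12.7 TPM, above their ppluc values of 49.4, 4.55 and 0.580 TPM, while their deposited CPM with shRNA 2 was 0.0878, 0.0321 and 0. The authors' means carry no error, and these differences were not tested.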

How the results depend on the processing

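Of 1160 values of the members' changes under 7 other settings and with each of 12 libraries left out, 1131 kept their direction and their side of the threshold, 7 lost the call, 13 gained it and 9 changed sign. The count of members that fell with shRNA 1 against ppluc was 2 instead of 1 with a pseudocount of 0.1 and after trimmed-mean and median-of-ratios scaling, and 1 to 2 with a library left out. For the mean of both shRNAs 1 member, Hist1h2bq, fell instead of 0 after either scaling (-0.23 under both, limma adjusted p = 0.026 and 0.025). With a library left out, the members that rose numbered 9 to 14 with shRNA 2, 8 to 13 for the mean of both shRNAs and 6 to 8 with the control vector, and those lower with shRNA 1 than with shRNA 2 numbered 9 to 14. The lower ends with shRNA 2 come from fewer members passing the filter.

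Sign changes were otherwise found in uncalled differences of shRNA 1 from ppluc. With a library left out, Hist2h2be ranged from -0.19 to 0.0082, Hist1h4a from -0.16 to 0.10 and Hist1h1b from -0.21 to 0.35, and Hist1h1b was at -0.013 and -0.017 after trimmed-mean and median-of-ratios scaling; the cause was not tested. No paired analysis was possible because the deposited columns carry no replicate numbers. Counts under about 10 reads a library limit the H4 genes and Hist1h2ai outside shRNA 2.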
